A study of Mus musculus with 18 samples.

Results

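Setd2 and 5 other mouse genes whose protein products are known or reported to methylate lysine 36 of histone H3 (Nsd1, Nsd2, Nsd3, Ash1l and Smyd2) were followed through depletion of Setd2 in muscle cells. The genes were listed by name, for this reported activity, and are 6 of the 47311 genes in the deposited tables that could be matched to an annotation. Their transcripts are 45 of 114200. PolyA RNA had been sequenced from C2C12, an established mouse skeletal muscle line, either as dividing, undifferentiated myoblasts or as differentiated myotubes. Each stage had 3 groups, si-Ctrl (a control siRNA), si-Setd2#1 and si-Setd2#2 (siRNAs against Setd2, called siRNA 1 and siRNA 2 here), with 3 libraries labelled as biological replicates in each, 18 in all. Every group, controls included, had been stretched before its RNA was taken, and no unstretched group was used here. All groups come from 1 cell line, the depletion acts on RNA, and neither protein nor histone methylation was measured in these files. The labels do not state the siRNA sequences, so where they match in the Setd2 RNA was not looked at.

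Setd2 binds the elongating form of RNA polymerase II and places the trimethyl mark on lysine 36 of histone H3 along transcribed genes. Nsd1, Nsd2, Nsd3 and Ash1l carry SET domains of the same kind and make the mono- and dimethyl marks, and their products are known as regulators of development that are mutated or translocated in overgrowth syndromes and cancers. Smyd2 belongs to another SET family and is best known for methylating proteins such as p53 and Hsp90, with lysine 36 of histone H3 as an early reported substrate. In muscle, H3K36 methylation has been studied for its part in myoblast proliferation and differentiation.

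The catalytic SET domain sets the 6 members apart from their shorter transcripts, so the bases that encode its conserved core are shown first. The 7 codons in capitals encode the NHSC motif, which lies at the methyl donor pocket. They were found by translating each annotated coding sequence of GENCODE M21 on mm10, with 1 of 2 residues allowed at the third position of the motif. Each line gives the coding strand, 5′ to 3′.
Setd2: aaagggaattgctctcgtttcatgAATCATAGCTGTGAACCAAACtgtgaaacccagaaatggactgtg
Nsd3: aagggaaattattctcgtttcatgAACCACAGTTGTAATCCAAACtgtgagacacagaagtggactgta
Nsd2: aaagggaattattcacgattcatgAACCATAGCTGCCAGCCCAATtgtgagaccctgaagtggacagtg
Nsd1: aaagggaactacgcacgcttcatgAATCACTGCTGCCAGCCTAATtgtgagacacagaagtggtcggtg
Ash1l: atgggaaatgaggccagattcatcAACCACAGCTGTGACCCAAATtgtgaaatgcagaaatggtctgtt
Smyd2: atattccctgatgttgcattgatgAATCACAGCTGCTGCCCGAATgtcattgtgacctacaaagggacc
Over these 69 bases Nsd3 was identical to Setd2 at 56, Nsd2 at 55, Nsd1 at 52 and Ash1l at 50. Smyd2 matched Setd2 at 24 of the 69 bases, most of them in the motif itself, where 14 of 21 were identical. The windows lie at chr9:110562955-110564579 for Setd2, chr8:25709087-25709155 for Nsd3, chr5:33891530-33891598 for Nsd2, chr13:55302863-55302931 for Nsd1, chr3:89043582-89051995 for Ash1l and chr1:189888860-189891410 for Smyd2, in coding exons. Those of Setd2, Ash1l and Smyd2 span an intron. Smyd2 lies on the minus strand and the other members on the plus strand.

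The genes occupy chr9:110532597-110618633 (Setd2, 10 transcripts in the tables), chr13:55209782-55318325 (Nsd1), chr5:33820725-33897975 (Nsd2, 15 transcripts), chr8:25601601-25719667 (Nsd3, 11 transcripts), chr3:88950622-89079375 (Ash1l, 4 transcripts) and chr1:189880492-189922363 (Smyd2, 4 transcripts). For Nsd1 the tables list 1 of 11 annotated transcripts, so its gene value is the value of Nsd1-201. The labels do not state whether the libraries keep strand. Reads from the ends of Nsd2, Ash1l and Smyd2 that overlap Nelfa, Dap3 and Gm37422 on the other strand therefore cannot be told apart from reads of those genes.

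Libraries held between 43.5 and 66.6 megareads of estimated counts. A ribosomal RNA-like sequence took a share of counts that ran from 1.2% to 1.36% (control), 3.56% to 3.9% (siRNA 1) and 1.45% to 4.09% (siRNA 2) in myoblasts, and from 1.27% to 2.99% over the 9 myotube libraries. Its part in the results was not tested. The labelled stages were checked on markers: 12 myotube genes, among them Ckm, Acta1 and Myh3, summed to 39 to 114 TPM (a share of the library's transcripts, corrected for their length) in myoblasts, and in myotubes to 15500 to 16600 TPM (control), 17400 to 18000 TPM (siRNA 1) and 17100 to 18000 TPM (siRNA 2). The 8 myoblast and myogenic regulator genes summed to 837 to 1000, 1020 to 1110 and 1160 to 1280 TPM in myoblasts, in the same order, and to 3990 to 4330 TPM in myotubes. Markers of dividing cells (Mki67, Top2a, Ccnb1, Plk1 and Cdk1) summed to 1270 to 1510 TPM in myoblasts and 119 to 199 TPM in myotubes. The 4 adipocyte markers summed to at most 0.284 TPM in any library and the 3 endothelial markers to at most 0.318 TPM. A set of 7 fibroblast markers summed to 23.4 to 33.2 TPM (control), 31.2 to 43.5 TPM (siRNA 1) and 48.6 to 71.3 TPM (siRNA 2) in myoblasts and to 135 to 237 TPM in myotubes. A set of 6 chondrocyte and osteoblast markers, 2 of them over 1 TPM in each group, summed to 89.9 to 98 TPM (control), 74.6 to 84.3 TPM (siRNA 1) and 77.4 to 87 TPM (siRNA 2) in myoblasts and to 42.8 to 54.7 TPM in myotubes. The 4 macrophage markers summed to at most 3.37 TPM and the 4 Schwann and neural markers to at most 2.02 TPM. The part of these shifts in the results was not tested. The column of the third siRNA 2 myoblast library is named for SETD3 in its table where its label has SETD2, and the third myotube control carries NT_2 in its name where the other controls carry NT_1. Both were kept, and results that need them are named below.

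In control cells all 6 genes were expressed, between 27.8 and 85.3 TPM, and Setd2 was neither the highest nor the lowest of them. Smyd2 led control myoblasts at 85.3 ± 2.48 TPM (SD, n = 3), followed by Nsd2 at 77.5 ± 3.14, Nsd3 at 48.8 ± 0.852, Setd2 at 33.7 ± 2.89, Nsd1 at 31.8 ± 0.979 and Ash1l at 28.6 ± 1.66 TPM. The libraries of Setd2 and Nsd1 overlapped, and every other pair of neighbours in this order was separated. The order is that of whole-gene sums, which include transcripts without the SET motif. In control myoblasts SET-coding transcripts held 97.1% of the TPM of Ash1l, 83.2% of Smyd2, 67.5% of Setd2, 52.6% of Nsd2 and 31.4% of Nsd3. In control myotubes the order was flatter. Smyd2 at 41.6 ± 0.496, Nsd2 at 39.9 ± 2.98 and Nsd3 at 39.2 ± 0.541 TPM overlapped in turn, Setd2 at 32.4 ± 1.04 overlapped Ash1l at 31.8 ± 0.875, and Nsd1 came last at 27.8 ± 0.865 TPM.

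With either siRNA, Setd2 dropped to the bottom of the 6. In myoblasts it stood at 12.5 ± 2.42 TPM with siRNA 1, below Ash1l at 27.4 ± 0.666, and at 14.9 ± 1.49 TPM with siRNA 2, below Ash1l at 24.4 ± 0.555. In myotubes it stood at 16.9 ± 4.39 and 12 ± 0.894 TPM, below Nsd1 at 25.5 ± 1.58 and 25.4 ± 1.19. No library of Setd2 reached any library of the gene above it. Of the summed TPM of the 6 genes, Setd2 held 11% in control myoblasts, 4.42% with siRNA 1 and 5.49% with siRNA 2, and in myotubes 15.2%, 9.47% and 7.59%.

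**Figure D1:**
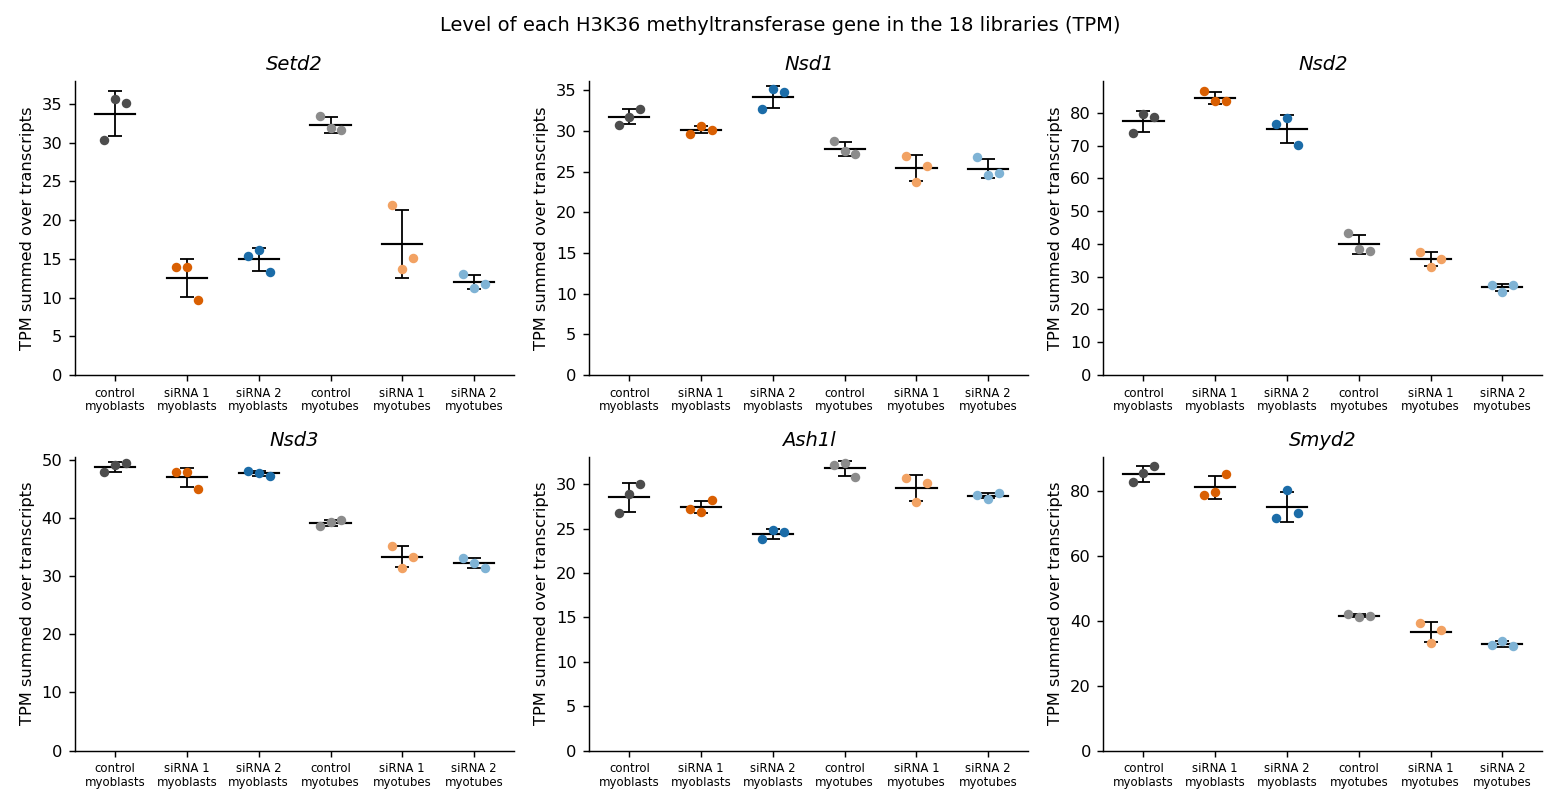
TPM of each of the 6 genes (vertical axis, TPM summed per gene, its own scale in each panel) in the 18 libraries, by stage and siRNA; points are libraries and bars are mean ± SD of 3. All depleted libraries of Setd2 lie below its controls at both stages, and Nsd2 and Smyd2 are lower in all myotube than in all myoblast libraries.

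Setd2 fell with each siRNA at each stage. The control myoblast libraries held 30.4, 35.7 and 35.1 TPM of Setd2. The siRNA 1 libraries held 13.9, 13.9 and 9.7 TPM, and the siRNA 2 libraries 15.4, 16.2 and 13.3 TPM. All 6 depleted libraries lay below all 3 controls, and those of siRNA 1 and siRNA 2 overlapped. In myotubes the controls held 33.5, 31.9 and 31.6 TPM, the siRNA 1 libraries 21.9, 13.7 and 15.1 TPM, and the siRNA 2 libraries 13, 11.2 and 11.8 TPM. The first siRNA 1 myotube library kept the most Setd2 of the 12 depleted libraries.

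In edgeR's quasi-likelihood test, fitted over all genes, Setd2 fell by 63.7% with siRNA 1 in myoblasts (log2 fold change −1.46, SE 0.10, adjusted p = 1.69e-05) and by 60.3% with siRNA 2 (−1.33, SE 0.10, adjusted p = 1.14e-05). In myotubes it fell by 56.6% with siRNA 1 (−1.20, SE 0.17, adjusted p = 0.00299) and by 65.5% with siRNA 2 (−1.54, SE 0.17, adjusted p = 5.81e-04). The siRNAs were not shown to differ in depth of depletion: siRNA 2 against siRNA 1 was 0.13 in log2 (SE 0.10, adjusted p = 0.406) in myoblasts and −0.33 (SE 0.17, adjusted p = 0.247) in myotubes. Nor was a stage difference called for Setd2 in controls (−0.04, SE 0.13, adjusted p = 0.817) or in the size of the depletion (0.03, SE 0.17, adjusted p = 0.942). With libraries of 1 group and name prefix summed, which leaves fewer samples, the siRNA 1 myoblast call was lost (−1.46, adjusted p = 0.0542). Over all alternatives for that comparison the adjusted p ran from 2.10e-62 to 0.0542. In bulk RNA, fewer cells that express a gene and less of its RNA per cell cannot be told apart, here and below.

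Nearly all of Setd2's estimated counts, and nearly all of their fall, lay on the full-length transcript. Setd2-201 (8350 bases, 21 exons, 7611 coding bases, with the SET motif) held 89.4% of Setd2's estimated counts on average over the 18 libraries. The next was Setd2-210 (2910 bases, 10 exons), which starts downstream of the SET-coding exons and held 5.63%. Setd2-206, a transcript annotated as a nonsense-mediated decay target, held 1.37%, and the retained-intron transcripts Setd2-208 and Setd2-204 held 1.16% and 1.11%. The other 5 held under 1% each. Both transcripts that encode the SET motif, Setd2-201 and Setd2-209, together held 91.9% ± 0.673 of the gene's counts in control myoblasts and 92.7% ± 0.431 in control myotubes. With siRNA 1 they held 89.6% ± 2.38 and 85.7% ± 1.46, and with siRNA 2 89.3% ± 0.969 and 88.7% ± 1.94.

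**Figure D2:**
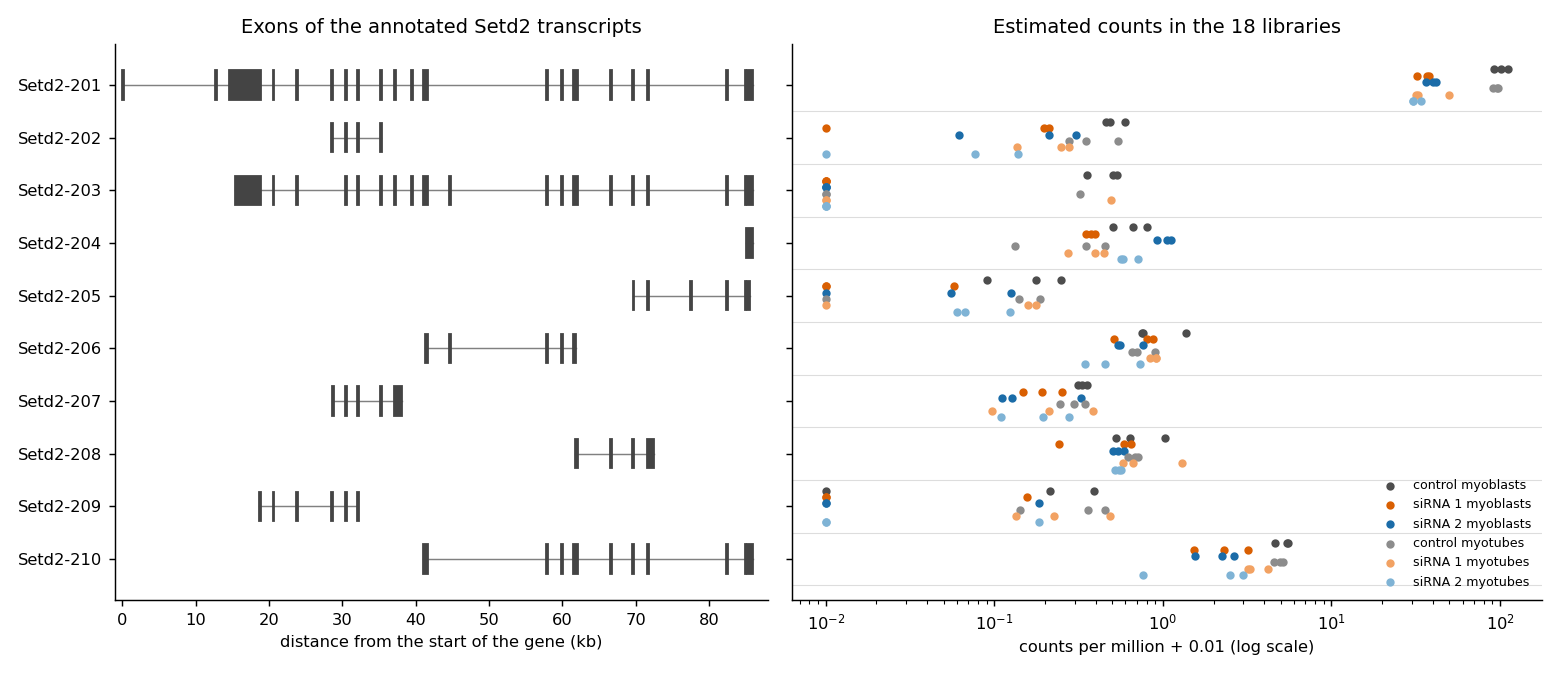
Left, exon blocks of the 10 Setd2 transcripts in kilobases from the start of the gene; right, their level in each library as CPM + 0.01 on a log axis (CPM, library-scaled counts, as used below), by group. Setd2-201 lies above every other transcript in all 18 libraries and Setd2-210 is next.

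Estimated counts of Setd2-201 were 5409, 5384 and 6193 in control myoblasts, 2365, 1960 and 1699 with siRNA 1 and 2281, 1796 and 1921 with siRNA 2. As CPM (counts scaled to a common library size) these were 91.9, 101 and 112, then 38.1, 37.1 and 32.2, then 41.6, 39.9 and 36.2. In myotubes the CPM of Setd2-201 were 96.5, 97 and 90.9 in controls, 49.7, 32.6 and 31.9 with siRNA 1 and 33.9, 30.6 and 30.6 with siRNA 2. Depleted and control libraries did not overlap at either stage. Setd2-201 carried 93.1% of the gene's loss in CPM with siRNA 1 and 93.4% with siRNA 2 in myoblasts, and 98% and 94.5% in myotubes. By TPM, which weights short transcripts more, its part in the loss was smaller. Mean TPM of Setd2-201 went from 22.1 to 7.44 (siRNA 1) and 8.28 (siRNA 2) in myoblasts, and that of the gene from 33.7 to 12.5 and 14.9. In myotubes Setd2-201 went from 22.1 to 8.46 and 6.84 TPM, and the gene from 32.4 to 16.9 and 12.

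The transcript fell in all 4 comparisons by edgeR's quasi-likelihood test over all transcripts, by −1.50 on the log2 scale (SE 0.09, adjusted p = 1.50e-04) and −1.37 (SE 0.09, adjusted p = 7.44e-05) in myoblasts and by −1.32 (SE 0.16, adjusted p = 0.00894) and −1.58 (SE 0.16, adjusted p = 0.00156) in myotubes. Since Setd2-201 makes up most of the gene, its difference from the whole gene in edgeR's diffSpliceDGE is near 0 by construction (−0.04 to −0.11 in log2, adjusted p = 1 in each), which does not show that the other transcripts fell alike. By mean CPM, Setd2-201 fell by 64.7% and Setd2-210 by 54.8% with siRNA 1 in myoblasts, by 61.3% and 58.8% with siRNA 2, and in myotubes by 59.8% and 27.3% with siRNA 1 and by 66.6% and 57.5% with siRNA 2. The limma version of the test on voom values sets a transcript against the others of its gene and called Setd2-201 in 2 of the 4, with −0.64 for siRNA 2 in myoblasts (adjusted p = 0.0162) and −1.16 for siRNA 1 in myotubes (adjusted p = 2.70e-04).

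Setd2-210 fell with siRNA 2 in myoblasts and was lower, without passing the test, in the other comparisons. Its CPM were 4.6, 5.51 and 5.46 in control myoblasts, 2.31, 3.21 and 1.52 with siRNA 1 and 2.64, 2.24 and 1.54 with siRNA 2. No depleted myoblast library reached a control. The log2 fold change was −1.15 with siRNA 1 (adjusted p = 0.0868, edgeR) and −1.27 with siRNA 2 (SE 0.29, adjusted p = 0.0294). That call was lost without any 1 of control replicates 1, 2 and 3 (adjusted p = 0.0583, 0.0954 and 0.0935) or siRNA 2 replicates 2 and 3 (0.0848 and 0.0951). In myotubes the controls held 4.53, 5.15 and 4.94 CPM, siRNA 1 4.18, 3.28 and 3.17 and siRNA 2 2.5, 2.97 and 0.748. The changes of −0.46 (adjusted p = 0.706) and −1.23 (adjusted p = 0.14) did not pass, and the second passed without siRNA 2 replicate 3 (−0.83, adjusted p = 0.0456). Only 28 of the 31-base words of Setd2-210 occur in no other transcript, against 952 of Setd2-201, so the split of counts between them rests on little sequence of its own.

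Setd2-204 stood at a higher mean level with siRNA 2 than in controls at both stages, without passing the test, and at a lower one with siRNA 1 in myoblasts. It is a single block of 1007 bases that joins 217 bases of the last intron to 790 bases of the last exon, and the junction it lacks is shown against that of Setd2-201. Capitals mark the first bases of the last exon, which both share, and lower case marks the end of the exon before it (Setd2-201, chr9:110617506-110617847) or the end of the unspliced intron (Setd2-204, chr9:110617788-110617847).
Setd2-201: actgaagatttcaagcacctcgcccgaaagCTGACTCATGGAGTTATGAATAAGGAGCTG
Setd2-204: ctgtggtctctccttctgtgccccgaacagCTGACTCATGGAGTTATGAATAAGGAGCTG
Estimated counts of Setd2-204 were 47, 35 and 27 in control myoblasts, 23, 18 and 20 with siRNA 1 and 60, 41 and 56 with siRNA 2, or 0.495 to 0.792 CPM, 0.339 to 0.387 CPM and 0.907 to 1.1 CPM. The 3 groups did not overlap in CPM, with siRNA 2 highest and siRNA 1 lowest. Neither siRNA passed the test against control (−0.83, adjusted p = 0.143, and 0.66, adjusted p = 0.154, edgeR), but siRNA 2 was higher than siRNA 1 by 1.48 (SE 0.24, adjusted p = 0.0107). Without siRNA 1 replicate 2 that adjusted p was 0.0508.

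As a share of Setd2's counts, Setd2-204 rose from 0.596% ± 0.191 in control myoblasts to 2.32% ± 0.297 with siRNA 2, against 0.917% ± 0.164 with siRNA 1. In myotubes the share was 0.296% ± 0.16 in controls, 0.817% ± 0.166 with siRNA 1 and 1.72% ± 0.326 with siRNA 2. Its change differed from that of the whole gene by 1.98 in log2 for siRNA 2 in myoblasts, which edgeR's diffSpliceDGE did not call (adjusted p = 0.246). That test called no departure of Setd2-204 in any of the 4 comparisons. Limma's test on voom values, against the other transcripts, called it for siRNA 2 in myoblasts (1.99, adjusted p = 2.43e-04) and in myotubes (2.90, adjusted p = 0.00724). Myotube counts were 20, 8 and 18 in controls, 23, 13 and 21 with siRNA 1 and 27, 33 and 36 with siRNA 2, and no myotube comparison of its level passed (adjusted p = 0.891 and 0.284). Setd2-204 has 215 words of 31 bases of its own.

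**Figure D3:**
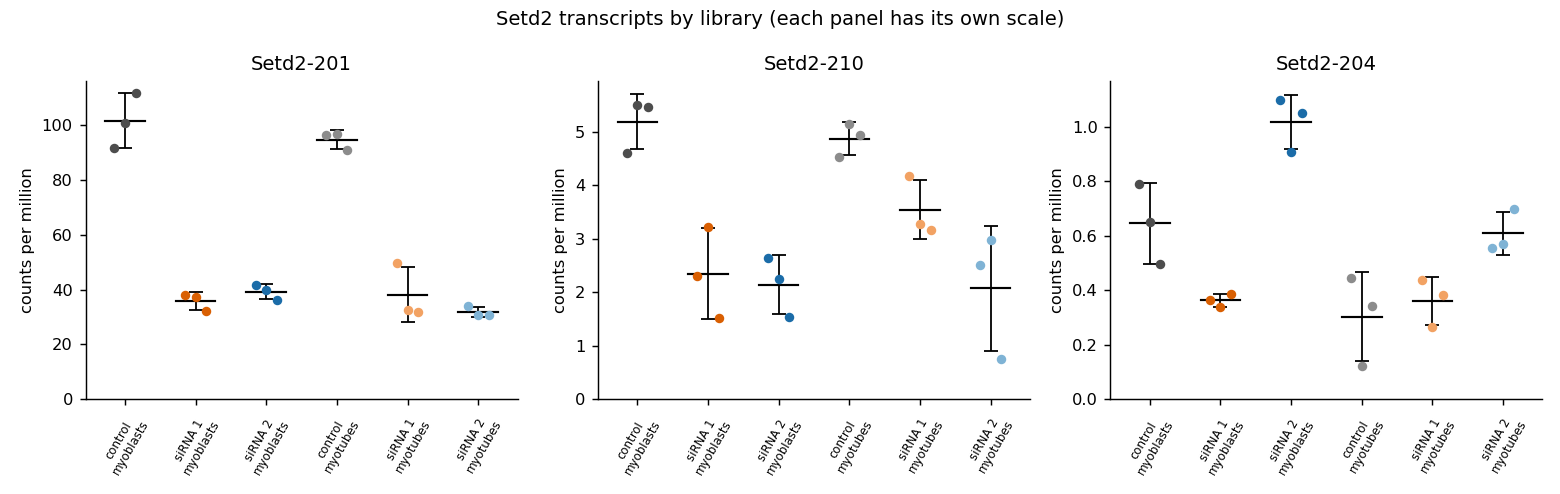
CPM of Setd2-201, Setd2-210 and Setd2-204 in each library (points) with mean ± SD of 3 per group, each panel with its own linear axis from 0. The first 2 are lower in depleted than in control myoblasts, and Setd2-204 is highest with siRNA 2.

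Setd2-203, a nonsense-mediated decay transcript of 19 exons, held 29, 28 and 19 counts in control myoblasts and 0 in all 6 depleted myoblast libraries. With the zeros of each group set to 3 counts in sum, it was 25.5-fold lower with siRNA 1 and 23.2-fold lower with siRNA 2. These folds follow from the value set and do not bound the level, since a listed 0 is an estimate. The falls were called by edgeR (adjusted p = 0.0413 and 0.0203). The calls were lost without any 1 control (adjusted p between 0.0956 and 0.234) and, for siRNA 1, without any 1 of its own libraries (0.0693 to 0.0932). In myotubes 2 controls and 5 of 6 depleted libraries were listed at 0, with 17 counts in the third control and 27 in the third siRNA 1 library. It has 57 words of its own in 7442 bases. Setd2-206 and Setd2-208 passed in no comparison.

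Of the other 5 members, 1 rose with siRNA 1 in myoblasts and none fell. Counting Setd2, 1 of 6 was called higher and 1 lower, where 11.6% of the 15586 genes tested were higher and 8.44% lower. With siRNA 2, 1 of 6 was higher and 3 lower, against 17.1% and 16.5% of genes. In myotubes none was higher and 3 were lower with siRNA 1 (11.0% and 9.57% of 16097 genes), and none was higher and 4 lower with siRNA 2 (15.8% and 16.4%). With 6 genes these shares are coarse, and Setd2, the target of the siRNAs, is 1 of the lower genes in each comparison. The other lower genes were Ash1l and Smyd2 with siRNA 2 in myoblasts and Nsd2 and Nsd3 with siRNA 1 in myotubes. With siRNA 2 in myotubes they were Nsd2, Nsd3 and Smyd2. Both siRNA comparisons of a stage share their 3 controls.

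**Figure D4:**
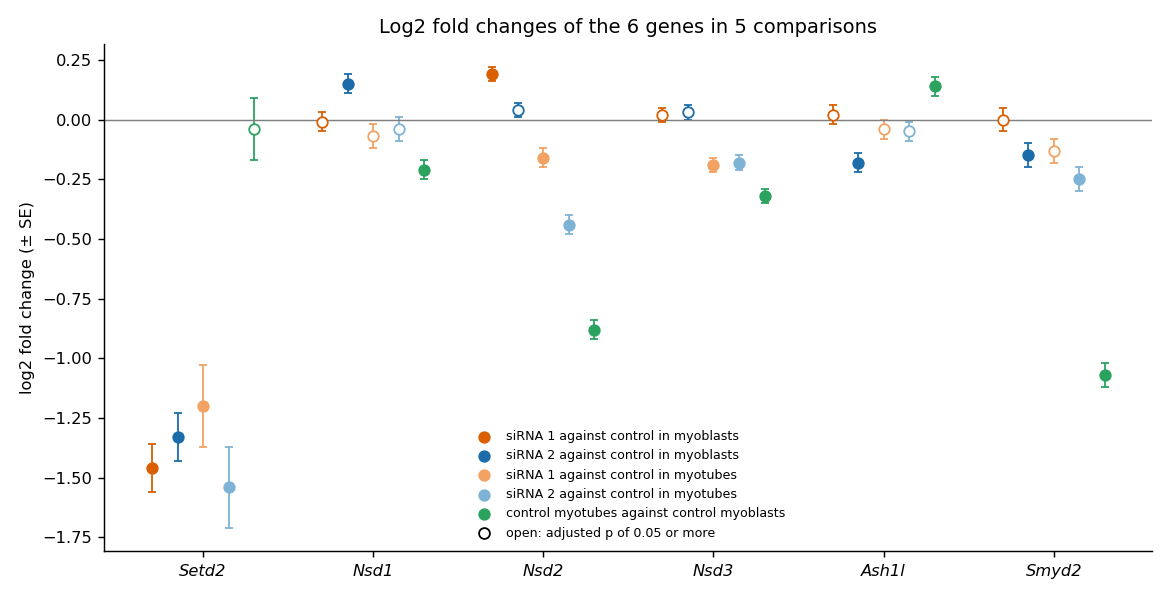
Log2 fold change ± SE of each gene for each siRNA against control in myoblasts and in myotubes and for control myotubes against control myoblasts; filled points passed an adjusted p of 0.05 and open points did not. Apart from Setd2, every siRNA change lies between −0.44 and 0.19, while Nsd2 and Smyd2 are near −1 between the stages.

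Nsd2, a main source of the dimethyl mark on lysine 36 in many cell types, was called higher in myoblasts with siRNA 1 only and lower in myotubes with both siRNAs. In myoblasts it stood at 180, 188 and 189 CPM in controls, 214, 209 and 210 with siRNA 1 and 190, 196 and 189 with siRNA 2. In myotubes it stood at 96, 96.5 and 95.7 CPM in controls, 92.5, 81.5 and 84.2 with siRNA 1 and 72.2, 68.7 and 71.3 with siRNA 2. All siRNA 1 libraries lay above the myoblast controls, and all 6 depleted myotube libraries lay below theirs.

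Nsd2 was 13.7% higher with siRNA 1 in myoblasts (0.19, SE 0.03, adjusted p = 6.75e-04, edgeR), and 0.04 with siRNA 2 did not pass (adjusted p = 0.275). On the TPM scale the siRNA 1 rise did not pass with limma (adjusted p = 0.109 and 0.107 with pseudocounts of 0.1 and 1). In myotubes it fell by 10.4% with siRNA 1 (−0.16, SE 0.04, adjusted p = 0.0243) and by 26.4% with siRNA 2 (−0.44, SE 0.04, adjusted p = 2.25e-05). The first of these was lost without any 1 control (adjusted p = 0.0637, 0.0697 and 0.0589) and without siRNA 1 replicates 2 and 3 (0.131 and 0.113). The siRNA 2 fall passed in every alternative. Nsd2 was also lower with siRNA 2 than with siRNA 1 in log2, at −0.14 in myoblasts (adjusted p = 0.00302) and −0.28 in myotubes (SE 0.04, adjusted p = 0.00106). The depletion effect, averaged over both siRNAs, was lower in myotubes than in myoblasts (−0.41 in log2, SE 0.04, adjusted p = 1.90e-06).

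Nsd3, whose short forms bind chromatin without a SET domain, was called lower with each siRNA in myotubes and not called with either in myoblasts. Its CPM were 129, 132 and 135 in control myoblasts, 136, 134 and 134 with siRNA 1 and 136, 132 and 135 with siRNA 2, which overlap. In myotubes the controls held 101, 99.5 and 102 CPM, above siRNA 1 at 91.8, 85.3 and 89.1 and siRNA 2 at 89.7, 89.2 and 87.6. The myotube falls were 12.2% (−0.19, SE 0.03, adjusted p = 0.00267, edgeR) and 12% (−0.18, SE 0.03, adjusted p = 0.00159), and the myoblast values were 0.02 (adjusted p = 0.612) and 0.03 (adjusted p = 0.535). The difference between the stages passed (−0.21, SE 0.04, adjusted p = 3.26e-04). These Nsd3 calls held in every alternative tried.

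Nsd1, mutated in Sotos overgrowth syndrome, moved little. It held 218, 226 and 232 CPM in control myoblasts, 219, 227 and 227 with siRNA 1 and 239, 253 and 258 with siRNA 2. The siRNA 2 libraries lay above the controls, by 11% on average (0.15, SE 0.04, adjusted p = 0.00535, edgeR), and above siRNA 1 (0.16, adjusted p = 0.00599). On the TPM scale with limma the rise over control did not pass (adjusted p = 0.0903 and 0.0883). In myotubes −0.07 and −0.04 did not pass (adjusted p = 0.353 and 0.553), nor did the stage difference of −0.12 (SE 0.05, adjusted p = 0.0844). That difference passed without siRNA 2 myoblast replicate 1 (adjusted p = 0.0441), siRNA 1 myotube replicate 1 (0.0326) or siRNA 2 myotube replicate 1 (0.0345).

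Ash1l, a Trithorax-group protein that makes the dimethyl mark at developmental genes, fell with siRNA 2 in myoblasts and was not called in the other comparisons with control by edgeR. Its CPM were 164, 177 and 183 in control myoblasts, 174, 173 and 183 with siRNA 1 and 151, 154 and 158 with siRNA 2. The siRNA 2 libraries lay below both other groups. The fall was 11.6% against control (−0.18, SE 0.04, adjusted p = 0.00501, edgeR) and −0.20 against siRNA 1 (adjusted p = 0.00376). With siRNA 1 in myoblasts the value was 0.02 (adjusted p = 0.804), and in myotubes −0.04 and −0.05 (adjusted p = 0.513 and 0.386). On the TPM scale with limma the siRNA 2 fall in myotubes passed (−0.15 and −0.14, adjusted p = 0.0391 and 0.0382 with pseudocounts of 0.1 and 1).

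Smyd2 was lower with siRNA 2 at both stages. Its CPM were 62.8, 66 and 65.1 in control myoblasts, 61.9, 62.8 and 69.2 with siRNA 1 and 56, 61.3 and 57.1 with siRNA 2. In myotubes they were 29.7, 28.8 and 29.6 in controls, 28.9, 24.9 and 27 with siRNA 1 and 23.9, 25.2 and 24.7 with siRNA 2. The siRNA 2 libraries lay below the controls at each stage, and those of siRNA 1 overlapped the controls. The siRNA 2 falls were 10.1% in myoblasts (−0.15, SE 0.05, adjusted p = 0.0266, edgeR) and 16.3% in myotubes (−0.25, SE 0.05, adjusted p = 0.00298).

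The myoblast fall of Smyd2 was lost without siRNA 2 replicate 1 (adjusted p = 0.0791), control replicate 2 (0.0892), control replicate 3 (0.0754) or siRNA 2 replicate 3, the library with SETD3 in its name (0.0924). With siRNA 1 the values were −0.00 in myoblasts (adjusted p = 0.997) and −0.13 in myotubes (adjusted p = 0.113). The latter passed without siRNA 1 replicate 1 (−0.17, adjusted p = 0.0329).

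Set against each other, the siRNAs were called different for 4 members in myoblasts and for 1 in myotubes. In myoblasts siRNA 2 against siRNA 1 called 1 of 6 higher (Nsd1) and 3 lower (Nsd2, Ash1l and Smyd2), where 12.1% of genes were higher and 14.3% lower. In myotubes it called 1 of 6 lower (Nsd2), where 9.36% of genes were, and none higher, where 7.76% were. The Smyd2 difference in myoblasts (−0.15, adjusted p = 0.033) was lost without siRNA 2 replicate 1 (adjusted p = 0.11), siRNA 1 replicate 3 (0.105) or siRNA 2 replicate 3 (0.112). The myotube count was 2 without siRNA 1 replicate 2, with Smyd2 then called (−0.17, adjusted p = 0.0479).

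The summed level of the 5 genes other than Setd2 was lower in depleted than in control myotubes. These 5 genes together held 272 ± 8.75 TPM in control myoblasts, 270 ± 1.83 with siRNA 1 and 256 ± 8.75 with siRNA 2. In myotubes they held 180 ± 4.19 TPM in controls, 160 ± 10.2 with siRNA 1 and 146 ± 2.18 with siRNA 2. Library sums overlapped between control (262 to 279) and siRNA 1 myoblasts (269 to 272) and did not overlap between control (177 to 185) and depleted myotubes (150 to 170 and 145 to 149). The markers of dividing cells moved in the same direction in myotubes, from 177 to 199 TPM (control) to 119 to 132 TPM (siRNA 1) and 131 to 137 TPM (siRNA 2), with all 5 over 1 TPM in each group. In myoblasts they stood at 1370 to 1390, 1270 to 1330 and 1420 to 1510 TPM. Their part in the myotube falls of Nsd2, Nsd3 and Smyd2 was not tested.

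Between the stages, without depletion, Smyd2, Nsd2, Nsd3 and Nsd1 were lower in myotubes, Ash1l was higher, and Setd2 was not called. That is 1 of 6 higher and 4 lower, where 39.4% of 16930 genes were higher and 38.1% lower. Each stage has its own deposited table and its own library name prefixes, C14 and D2 in myoblasts and C13 and D1 in myotubes. What the prefixes mean is not stated. In every comparison between stages, stage cannot be told apart from prefix and table. Smyd2 fell by 52.4% (−1.07, SE 0.05, adjusted p = 1.66e-13, edgeR) and Nsd2 by 45.8% (−0.88, SE 0.04, adjusted p = 1.21e-14). Nsd3 fell by 19.9% (−0.32, SE 0.03, adjusted p = 5.25e-09) and Nsd1 changed by −0.21 (SE 0.04, adjusted p = 7.97e-05). Ash1l rose by 10.1% (0.14, SE 0.04, adjusted p = 0.00432). For all 5, which were called in this test, the 3 control libraries of one stage were separated from those of the other. How many of all genes were separated in this way was not counted. The third myotube control, with NT_2 in its name, held the lowest or middle TPM of its group for Setd2, Nsd1, Nsd2, Ash1l and Smyd2 and the highest for Nsd3, and none of these 5 stage calls was lost without it. The difference in depletion effect between the stages was called lower for 2 of 6, Nsd2 and Nsd3, and higher for none, where 12.8% of genes were lower and 10.6% higher. Of 43 member transcripts 4 were lower by that test and none higher, where 2.77% of all transcripts were lower and 1.84% higher. They were Nsd2-202, Nsd3-206, Nsd3-208 and Nsd2-208, the last named after its values were seen. Nsd2-208 was listed at 0 in all 6 depleted myotube libraries and in 2 control libraries, 1 of each stage, and held at most 98 counts in any library.

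Transcripts of the members were tested singly as well. Over the 41 member transcripts tested in myoblasts, 1 was higher and 2 lower with siRNA 1, where 1.82% and 1.04% of all transcripts were. With siRNA 2, 3 were higher and 5 lower, against 4.37% and 3.87%. In myotubes 2 of 39 were lower with each siRNA and none higher, against 1.03% and 2.55% lower and 1.66% and 3.87% higher. Between control stages 3 were higher and 16 lower of 43, against 23.6% and 21.4%. Between control stages, member transcripts were thus called lower more often, and higher less often, than all transcripts. Only there was the share called in either direction near that of all transcripts. With each siRNA, lower calls were also more frequent than over all transcripts. Higher calls were more frequent in myoblasts and absent in myotubes. Setd2, the siRNA target, supplied 2 (siRNA 1) and 3 (siRNA 2) of the lower transcripts in myoblasts and 1 with each siRNA in myotubes. Setd2-201 is among the lower ones in each of the 4 siRNA comparisons.

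Nsd2 was the member whose transcripts changed their shares most. Its full-length forms Nsd2-202 and Nsd2-203 have the same coding sequence of 4098 bases with the SET motif. They differ only at the 5′ end, where Nsd2-203 starts at position 33820725 of chromosome 5 with 2 more exons (223 bases) and Nsd2-202 at position 33843112. Nsd2-202 has no 31-base word of its own and Nsd2-203 has 19. Nsd2-205 leaves the shared path before the SET exons. The lines below show where, with the exon shared by both in lower case and the next exon in capitals (Nsd2-203, chr5:33868849-33879081, and Nsd2-205, chr5:33868849-33871430).
Nsd2-203: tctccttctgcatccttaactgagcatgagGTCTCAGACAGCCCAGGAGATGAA
Nsd2-205: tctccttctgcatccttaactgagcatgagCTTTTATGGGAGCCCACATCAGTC
Both forms thus share the first part of the protein, and Nsd2-205 has a coding sequence of 1941 bases without the SET motif.

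Nsd2-202 was nearly absent from control myoblasts and present in all other groups. Its estimated counts were 4, 0 and 56 in control myoblasts, 1246, 559 and 916 with siRNA 1, and 935, 1322 and 687 with siRNA 2. In myotubes they were 343, 1411 and 817 in controls, 1030, 529 and 584 with siRNA 1, and 252, 758 and 51 with siRNA 2. Libraries of 1 group differed widely, and the control myoblasts lay below all libraries of both other myoblast groups. By edgeR the rise was 5.47 in log2 with siRNA 1 (SE 0.91, adjusted p = 0.0185) and 5.78 with siRNA 2 (SE 0.91, adjusted p = 0.00642), and 5.47 in control myotubes over control myoblasts (SE 1.03, adjusted p = 4.17e-04). The siRNA 1 call was lost without control replicate 1 (adjusted p = 0.0567) or siRNA 1 replicate 1 (0.065). Without control replicate 3, the library with 56 counts, these 3 values moved to 8.72, 9.03 and 8.72, so the size of the rise is poorly fixed.

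Nsd2-203 took the other part of these counts. It held 4579, 4373 and 4435 counts in control myoblasts, 4225, 3695 and 3929 with siRNA 1 and 3520, 2423 and 3519 with siRNA 2, with the siRNA 2 change at −0.38 (SE 0.07, adjusted p = 0.017, edgeR). That call was lost without control replicate 2 (adjusted p = 0.0678) or 3 (0.0606). Summed, Nsd2-202 and Nsd2-203 held 43.2% ± 0.367 of Nsd2 counts in control myoblasts, 41.2% ± 2.54 with siRNA 1 and 42.3% ± 0.292 with siRNA 2. The sum was thus near the same share in the 3 groups while its split between the 2 forms differed, and the split rests on at most 19 distinguishing words. In myotubes the sums were 38% ± 1.78, 37.5% ± 2.23 and 35.8% ± 0.911.

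**Figure D5:**
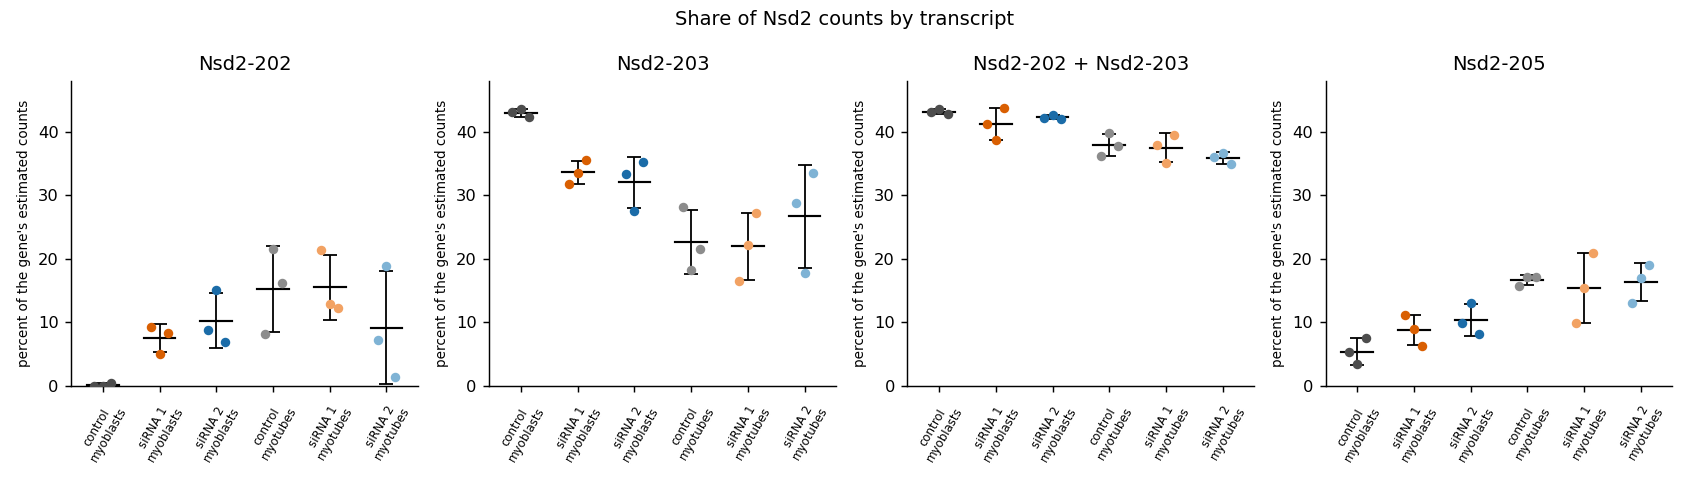
Percent of Nsd2's estimated counts on Nsd2-202, Nsd2-203, their sum and Nsd2-205 in each library (points), with mean ± SD of 3 per group. Nsd2-202 is near 0 in control myoblasts, the sum varies less than either form in siRNA 2 myoblasts and in each myotube group, and Nsd2-205 is higher in myotubes than in control myoblasts.

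Between stages, the SET-coding part of Nsd2 shrank. Its 3 SET-coding transcripts (Nsd2-201, Nsd2-202 and Nsd2-203) held 70.4% ± 0.82 of its counts in control myoblasts and 53.1% ± 0.884 in control myotubes. The 4 protein-coding transcripts without the motif held 27.4% ± 0.424 and 44.9% ± 1.19. Depleted myoblasts stood between, with SET-coding shares of 65.7% ± 1.76 (siRNA 1) and 65.2% ± 1.07 (siRNA 2), below every control library (69.8% to 71.3%). Depleted myotubes were at 51.1% ± 0.862 and 52% ± 1.59, overlapping their controls (52.1% to 53.7%) with siRNA 2 and not with siRNA 1 (50.3% to 52%).

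Single transcripts of Nsd2 moved unequally between control stages. Nsd2-201 changed by −1.69 in log2 (SE 0.10, adjusted p = 1.15e-09, edgeR), Nsd2-203 by −1.77 (SE 0.21, adjusted p = 4.87e-06) and Nsd2-205 by 0.78 (SE 0.30, adjusted p = 0.0477). Each of these 3 and Nsd2-202 differed in their change from the gene as a whole in edgeR's diffSpliceDGE, by −0.85 (adjusted p = 0.0139), −0.93 (5.86e-04), 1.62 (2.27e-04) and 6.31 (9.96e-23). Among all transcripts, 6.40% were called in that test. The level call of Nsd2-205 was lost without any 1 library of either control group except myoblast control 3 (adjusted p of 0.126 and 0.201 without myoblast controls 1 and 2, and 0.0721, 0.112 and 0.104 without the myotube controls) and without the siRNA 2 myoblast library with SETD3 in its name (0.0519). Nsd2-201 and Nsd2-205 have no 31-base word of their own. The share of Nsd2-205 was 5.28%, 3.41% and 7.56% in control myoblasts and 15.7%, 17.1% and 17.1% in control myotubes.

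In myoblasts diffSpliceDGE called 1 Nsd2 transcript with each siRNA, Nsd2-202 (5.29, adjusted p = 5.23e-15, and 5.73, adjusted p = 1.13e-16), and 1 Setd2 transcript, Setd2-203 (adjusted p = 0.0177 and 0.0144), where 0.317% and 0.467% of all transcripts were called. With limma's test on voom values the siRNA 1 value for Nsd2-202 was 7.29 and did not pass (adjusted p = 0.0804), and neither did Setd2-203 (0.577 and 0.452). None was called in myotubes by diffSpliceDGE, where 0.412% and 0.479% of all transcripts were. Limma's test called 1 member transcript there with siRNA 1 and 3 with siRNA 2. Its share over all transcripts was not counted, so whether these counts exceed it is not known.

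The summed share of the SET-coding forms of Nsd3 had group means between 56% and 58.9%. In diffSpliceDGE no single form was called to change its share between control stages. Its 4 SET-coding transcripts held 56.5% ± 0.551 of its counts in control myoblasts and 58.3% ± 1.6 in control myotubes. The short protein-coding forms without the motif, among them Nsd3-203 and Nsd3-208, held 40.2% ± 0.169 and 38.6% ± 1.86. The full-length Nsd3-206 (10105 bases) held 59.1, 63.1 and 62.5 CPM in control myoblasts and 51.7, 46.9 and 50.9 CPM in control myotubes (−0.19, SE 0.05, adjusted p = 0.0105, edgeR). Nsd3-208 held 19.3, 20.2 and 20.5 CPM and 12.8, 13.6 and 13.2 CPM (−0.48, SE 0.06, adjusted p = 9.68e-06). Nsd3-206 has no 31-base word of its own, Nsd3-208 has 22 and Nsd3-204 has 27. In all 5 of 11 Nsd3 transcripts were lower in control myotubes and none was higher, and no Nsd3 transcript was called to change its share there. Nsd3-204 held 7.92% to 9.03% in control myoblasts and 5.78% to 6.48% in control myotubes, Nsd3-208 14.9% to 15.3% and 12.7% to 13.7%, and Nsd3-211 5.48% to 6.95% and 7.79% to 10.2%. These forms were picked because their ranges did not overlap. How many of all transcripts were separated in this way was not counted.

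Ash1l and Smyd2 were each dominated by 1 transcript. Ash1l-201 rose between control stages (0.28, SE 0.05, adjusted p = 4.92e-04, edgeR), although its library ranges touched (133 to 152 and 149 to 164 CPM). Ash1l-202, which has the same length of coding sequence (8874 bases) and 1 more exon, fell as a share of the gene from 19.7% ± 4.58 to 14.1% ± 1.53 (−0.48 relative to the gene, adjusted p = 0.0144, diffSpliceDGE). Ash1l-201 has no 31-base word of its own, against 375 of Ash1l-202. Smyd2-201, the only Smyd2 transcript that encodes the SET motif, held 92.4% ± 1.58 of Smyd2 counts in control myoblasts and 90.1% ± 2.2 in control myotubes. It fell with the gene between stages (−1.06, SE 0.06, adjusted p = 5.10e-10) and with siRNA 2 in myotubes (−0.27, SE 0.06, adjusted p = 0.0362). The latter was lost without any 1 of the 6 libraries compared (adjusted p between 0.0785 and 0.112).

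Genes around the same mark were counted with the same tests. In myoblasts 4.25% of all genes were lower and 7.69% higher with both siRNAs. Of 6 tested genes listed by name as reported demethylases of lysine 36, 2 were lower with each siRNA in myoblasts and none higher. They were Kdm8 (−0.31 and −1.20, adjusted p = 0.0344 and 1.93e-06, edgeR) and Kdm4b (−0.21 and −0.39, adjusted p = 0.024 and 2.50e-04). The siRNA 1 calls were lost for Kdm8 without siRNA 1 replicate 1 or 2 or control replicate 2 or 3 (adjusted p of 0.121, 0.118, 0.136 and 0.083), and for Kdm4b without control replicate 1 or siRNA 1 replicate 1 or 2 (0.0564, 0.0882 and 0.0522). In myotubes 1 of 6 was lower, Kdm4a (−0.20 and −0.24, adjusted p = 0.0092 and 0.0019), where 6.27% of genes were lower and 7.14% higher with both. The median log2 change of the 6 was −0.12 with each siRNA in myoblasts and −0.03 and −0.10 in myotubes, against 0.01, 0.00, −0.00 and −0.01 over all genes.

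Of 16 genes for readers, whose proteins bind methylated lysine 36, 1 was higher in myoblasts with both siRNAs and none lower, near the shares over all genes (7.69% and 4.25%). It was Phf19, a Polycomb partner (0.33 and 0.30, adjusted p = 2.25e-04 and 2.12e-04, edgeR). In myotubes 1 was higher, Dnmt3a, a DNA methyltransferase (0.21 and 0.50, adjusted p = 0.0311 and 1.08e-04), and 1 lower, Msh6 of mismatch repair (−0.26 and −0.30, adjusted p = 0.00136 and 2.90e-04), where 7.14% and 6.27% of all genes were. The siRNA 1 call of Dnmt3a was lost without any 1 control (adjusted p = 0.103, 0.0897 and 0.0597) or siRNA 1 replicate 1 or 3 (0.0686 and 0.0591). Reader medians lay between −0.00 and 0.02 in all 4 comparisons.

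A further list held 18 genes named as partners of Setd2 in transcription elongation, Spop and Hnrnpl among them, called elongation genes here. Of these 18, 1 was higher and 1 lower with both siRNAs in myoblasts, against 7.69% and 4.25% of all genes. Cdk13, a kinase of the polymerase tail, was higher (0.25 and 0.40, adjusted p = 5.35e-04 and 5.12e-06, edgeR), and Rtf1 of the Paf1 complex lower (−0.12 and −0.44, adjusted p = 0.0162 and 6.73e-07). The siRNA 1 call of Rtf1 was lost without siRNA 1 replicate 1 (adjusted p = 0.0823). In myotubes 2 were lower, Supt16 of the FACT complex (−0.25 and −0.13, adjusted p = 0.00219 and 0.036) and Cdk12 (−0.15 and −0.16, adjusted p = 0.0149 and 0.00614), and none was higher, against 6.27% and 7.14% of all genes. The siRNA 2 call of Supt16 was lost without siRNA 2 replicates 1, 2 or 3 or control replicates 2 or 3 (adjusted p of 0.1, 0.0927, 0.0546, 0.147 and 0.059). The siRNA 1 call of Cdk12 was lost without control replicates 1 or 2 or siRNA 1 replicates 2 or 3 (0.0603, 0.0515, 0.0951 and 0.0619).

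Among 11 other SET domain genes, 2 were higher and 1 lower with both siRNAs in myoblasts, and 3 higher and 1 lower in myotubes. Of all genes 7.69% were higher and 4.25% lower with both siRNAs in myoblasts, and 7.14% and 6.27% in myotubes. Setd3, the actin histidine methyltransferase, was higher at both stages (0.21 and 0.12 in myoblasts, 0.22 and 0.23 in myotubes, adjusted p from 5.96e-04 to 0.0217, edgeR). Its siRNA 2 call in myoblasts was lost without siRNA 2 replicate 1 (adjusted p = 0.0729), control replicate 2 (0.0945) or control replicate 3 (0.055). Smyd1, a muscle-specific relative of Smyd2, was higher in myotubes (0.20 and 0.33, adjusted p = 0.00886 and 1.94e-04), the first lost without control replicate 3 (adjusted p = 0.0518). Setd6 was higher in myotubes (0.19 and 0.48) and on the TPM scale with limma changed sign with siRNA 1 (−0.02). Smyd4 was higher (0.22 and 0.24) and Setd7 lower (−0.26 and −0.13) in myoblasts.

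Among 19 genes listed by name as methyltransferases of other histone lysines, 1 was higher in myoblasts with both siRNAs and 4 were lower in myotubes. Over all genes these shares were 7.69% and 6.27%. The higher gene was Kmt2e (0.20 and 0.38, adjusted p = 0.00114 and 3.16e-06, edgeR). Whether each listed gene has this activity was not looked at. The 4 included the lysine 27 methyltransferase Ezh2 (−0.27 and −0.30, adjusted p = 0.00981 and 0.00293) and the lysine 9 methyltransferases Suv39h1 (−0.18 and −0.24) and Suv39h2 (−0.32 and −0.31). With siRNA 1, Suv39h1 was lost without any 1 of the 6 libraries (adjusted p between 0.0607 and 0.152), Suv39h2 without any but control replicate 3 (0.0974 to 0.16), and Ezh2 without siRNA 1 replicate 3 (0.0596). With siRNA 2, Suv39h2 was lost without any but control replicate 3 (0.0579 to 0.136). The markers of dividing cells given above fell in the same myotube libraries.

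Across the libraries of a stage, the genes whose levels ran most like Setd2 were Angel2 (Pearson's r of 0.94 over 9 myoblast and 0.95 over 9 myotube libraries), Hells (0.96 and 0.94), Gapvd1 (0.95 and 0.94), Gnl3l (0.93 and 0.93) and Nkrf (0.93 and 0.93). The points of each r are the 3 groups of a stage, so r mostly follows the group means, and the libraries share their scaling. Since these genes were picked for their likeness over the same libraries, their own changes with depletion are not given. Among the members, Nsd3 ran with Setd2 in myotubes (0.96) and not in myoblasts (−0.43), as did Nsd2 (0.88 and −0.67) and Smyd2 (0.89 and 0.31). The nearest genes to the others were Gatad2b and Fam126b for Nsd1, Slc36a4 and Fam214b for Nsd2, Spcs2 and Ss18 for Nsd3, Rbm27 and Gpr17 for Ash1l, and Hsph1 and Baz1b for Smyd2, with the smaller r of each pair between 0.81 and 0.93.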

How the data were processed

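The authors deposited 1 table per stage with estimated counts and TPM per transcript for 9 libraries. Per the file headers these are the columns of a salmon-type quantifier, whose name, version and annotation no label or header states. For this study mm10 and DESeq2 are listed in the submitters' processing notes. Of 115088 transcripts, 114200 matched GENCODE M21 on mm10, and 888 with 0.16% to 0.24% of counts were not used. Gene counts, the sums over transcripts, were rounded and tested with edgeR 4.0.16 in R 4.3.3 (filterByExpr minimum 10, TMM, robust glmQLFit, glmQLFTest, Benjamini-Hochberg over all genes or transcripts, threshold 0.05). Each stage's 9 libraries had 1 fit (6 residual degrees of freedom), and stage comparisons used all 18 (12). Transcript shares were tested with diffSpliceDGE. CPM are TMM-scaled. SE came from the F statistic. The tests of siRNA 1 against control in myoblasts were checked on simulated counts. These held no uncertainty of the quantifier between overlapping transcripts, and the fit of all 18 libraries was not simulated.

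Alternatives used DESeq2 1.42.0, limma 3.58.1 on log2 TPM or voom values, other filters, the replicate block, the name prefix as a term, summed prefixes, and each library left out; leaving 1 out of 3 keeps a pooled spread. Labels do not say that replicates are separate cultures, so p-values measure spread between these libraries. Uncertainty of the quantifier between overlapping transcripts is not in any test. The members, the gene lists and the tests were chosen with earlier results of these data known. Named are the members, transcripts with at least 1% of their gene's counts, the 5 genes most like Setd2 and 2 per other member, and up to 3 genes per list called alike with both siRNAs. Setd2-203, Setd2-209 and Nsd2-208 were named after their values were seen.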

Additional observations from a re-analysis of the deposited data

Results flagged for a closer look

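Both siRNAs averaged, the effect of Setd2 depletion on Nsd2 and Nsd3 differed between the stages by a test of the difference itself (edgeR's quasi-likelihood test over all 18 libraries). For Nsd2 it was −0.41 in log2 (myotubes minus myoblasts, SE 0.04, adjusted p = 1.90e-06), and for Nsd3 −0.21 (SE 0.04, adjusted p = 3.26e-04). Both passed in all 25 alternatives, with ranges of −0.44 to −0.39 and −0.22 to −0.19. In myoblasts the siRNA 1 libraries of Nsd2 lay above all controls, and in myotubes all 6 depleted libraries lay below the lowest control.

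Among transcripts with at least 1% of their gene's counts, the same test picked out 3. Nsd2-202 had a difference of −6.29 (SE 1.16, adjusted p = 0.0049). It rests on the 4, 0 and 56 counts of control myoblasts and was −9.54 without the third of them, and this form has no 31-base word of its own. Nsd3-208, a short form without the SET motif, had −0.37 (SE 0.08, adjusted p = 0.00945). Nsd3-206, the full-length form, had −0.26 (SE 0.07, adjusted p = 0.034), and this was lost without any 1 of 7 libraries (adjusted p between 0.0516 and 0.0989): myoblast control 1, myoblast control 3, myoblast siRNA 1 replicate 1, myotube control 1, myotube control 3, and the third library of each myotube siRNA. It was also lost with limma on log2(TPM + 0.1) (adjusted p = 0.0636). Nsd3-206 has no 31-base word of its own and Nsd3-208 has 22. In the order control, siRNA 1, siRNA 2, CPM of Nsd3-206 were 59.1 to 63.1, 61 to 66.5 and 65.2 to 68.7 in myoblasts and 46.9 to 51.7, 41.3 to 47.3 and 43.3 to 45.1 in myotubes.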

How the results depend on the processing

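The Setd2 fall kept its direction throughout, with log2 values of −1.54 to −1.37 (siRNA 1) and −1.41 to −1.27 (siRNA 2) in myoblasts and −1.43 to −1.09 and −1.59 to −1.49 in myotubes when 1 library was left out. It lost its call once, for siRNA 1 in myoblasts with libraries of a group and prefix summed (−1.46, adjusted p = 0.0542). In that comparison 1 member was then called, as with limma on log2 TPM under both pseudocounts, in place of 2. By CPM in place of TPM, Setd2 with siRNA 2 in myoblasts was at 39.6% of control. By TPM in place of counts, Setd2-201 held 65.5%, 60.4% and 55.6% of the gene in control, siRNA 1 and siRNA 2 myoblasts and 68.2%, 49.8% and 57% in myotubes, since TPM weights the short transcripts more. The one sign change of a called value was Setd6 with siRNA 1 in myotubes (−0.02 with limma under both pseudocounts).

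Deviations from the group mean of same-numbered libraries correlated at −0.15 to 0.30 in myoblasts (median 0.13, 6 of 9 pairs over 0.1, against a median of −0.09 and 5 of 18 for other pairs) and at −0.10 to 0.14 in myotubes (median 0.07, 2 of 9, against −0.04 and 3 of 18). The labels tie no libraries together by number and not every pair was over 0.1, so the numbers were not taken as pairs.

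Transcript counts moved more. With the replicate block, called member transcripts were 1 (siRNA 1) in myoblasts, 1 and 1 in myotubes and 9 between stages, against 3, 2, 2 and 19, and elongation genes called alike with both siRNAs were 7 against 4; the block moved no other such count by over 1.5 times. For siRNA 2 in myotubes they were 4 at a minimum count of 50, 4 with limma and 1 with a prefix term. With 1 library left out they ran from 1 to 3 and 2 to 6 in myoblasts, from 1 to 1 and 1 to 3 in myotubes, and members called between the siRNAs in myotubes from 1 to 2. Share calls were 1 and 1 in myoblasts at a minimum of 50 (2 and 2 otherwise), and with limma on voom values 0, 4, 1, 3 and 8, against 2, 2, 0, 0 and 5, in the order siRNA 1 and 2 in myoblasts, the same in myotubes, and stages. For the limma counts the share over all transcripts was not counted. Readers called alike with both siRNAs were 5 with a prefix term (3 otherwise), other lysine methyltransferases 3 with DESeq2, without a filter and with summed libraries (5 otherwise), SET relatives 2 with limma under both pseudocounts (7 otherwise), and elongation genes 9 with limma under both pseudocounts and with a prefix term. The cause was not tested. Depth limits the rare transcripts: Setd2-203, Setd2-204 and Nsd2-202 rest on under 100 counts in at least 1 group.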
